A study of Mus musculus with 2 samples.

Results

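The genes described here are the long non-coding RNA genes detected in fetal liver erythroblasts, taken as those with at least 1 TPM in both libraries. TPM is a relative abundance of transcripts, corrected for their length, that sums to 1000000 in each library. They were selected on these deposited TPM values and on gene type: the GENCODE M21 annotation had to type the gene as lincRNA, antisense, processed_transcript, sense_intronic, bidirectional_promoter_lncRNA or TEC, and genes typed as pseudogenes were left out. Of 6829 genes of these 6 types in the tables, 77 passed, among 43346 Ensembl genes in all. The RNA was poly(A)-selected, sequenced as paired ends, and came from Ter119+ primary cells of mouse liver at embryonic day 14.5, from male and female embryos pooled together; Ter119 is a surface antigen of maturing red cells. The labels give no strain, treatment or genotype, and no other cell type or stage was measured. There is 1 group of 2 libraries, labelled as biological replicates and called library 1 and library 2 below. They have separate biosample entries but 1 donor entry, so their spread may be partly technical.

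Long non-coding RNAs are spliced or unspliced transcripts without a known protein product. A lincRNA gene lies between coding genes, an antisense gene overlaps a coding gene on the other strand, and a bidirectional promoter transcript starts beside a coding gene and runs away from it. Some act in the nucleus as RNA, some mark an active enhancer, and some serve mainly as hosts, from whose introns or exons small nucleolar RNAs (snoRNAs) or microRNAs (miRNAs) are cut. In maturing erythroblasts, which condense and then expel the nucleus, several have been described with roles in survival or near genes of red cell maturation.

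The mature miRNAs encoded within 3 of the detected hosts are shown first, because the host transcripts were measured here and the miRNAs themselves were not. They are RefSeq sequences for the GRCm38.p6 (mm10) build, written 5′ to 3′, with the seed, bases 2 to 8, in capitals. Mir142hg carries miR-142a, Dleu2 carries miR-15a and miR-16, and H19 carries miR-675. The 5p arms of miR-15a and miR-16 share the seed AGCAGCA.
miR-142a-5p: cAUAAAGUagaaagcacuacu
miR-142a-3p: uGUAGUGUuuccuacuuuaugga
miR-15a-5p: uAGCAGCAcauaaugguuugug
miR-16-5p: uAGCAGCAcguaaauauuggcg
miR-675-5p: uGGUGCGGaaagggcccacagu
miR-675-3p: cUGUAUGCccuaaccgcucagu

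A promoter window could be found in RefSeq for 40 of the 77 genes, running from 250 bases before to 50 bases after the RefSeq start. This start can differ from that of M21, by 0 bases for Lockd, 102 for Ttc39aos1, 36 for Gm28857 and at most 4181, for Gm37416. Those of 3 erythroid or antisense members are shown as examples with none, 1 and 2 matches to the motifs searched. The capitals mark letters of the GATA motif (AGATAA or TGATAA on either strand) and of the NFE2 and AP-1 motif (TGAGTCA on either strand). The Lockd window, chr6:134928842-134929141 on the plus strand, held neither. That of Ttc39aos1, chr4:109406208-109406507 on the minus strand, held the NFE2 and AP-1 letters 72 bases before the RefSeq start. That of Gm28857, chr1:130741242-130741541 on the minus strand, held GATA letters 220 bases and NFE2 and AP-1 letters 169 bases before it.
Lockd: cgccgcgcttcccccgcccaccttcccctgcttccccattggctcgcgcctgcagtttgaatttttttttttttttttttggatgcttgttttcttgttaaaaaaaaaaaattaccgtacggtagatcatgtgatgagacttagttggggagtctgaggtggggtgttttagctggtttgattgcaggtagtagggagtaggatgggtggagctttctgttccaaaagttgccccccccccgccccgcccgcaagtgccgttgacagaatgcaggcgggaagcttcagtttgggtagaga
Ttc39aos1: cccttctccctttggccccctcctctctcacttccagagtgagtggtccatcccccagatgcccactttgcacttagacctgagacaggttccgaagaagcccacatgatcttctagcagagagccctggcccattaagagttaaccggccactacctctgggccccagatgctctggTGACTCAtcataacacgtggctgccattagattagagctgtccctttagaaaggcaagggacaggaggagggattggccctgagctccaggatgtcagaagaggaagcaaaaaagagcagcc
Gm28857: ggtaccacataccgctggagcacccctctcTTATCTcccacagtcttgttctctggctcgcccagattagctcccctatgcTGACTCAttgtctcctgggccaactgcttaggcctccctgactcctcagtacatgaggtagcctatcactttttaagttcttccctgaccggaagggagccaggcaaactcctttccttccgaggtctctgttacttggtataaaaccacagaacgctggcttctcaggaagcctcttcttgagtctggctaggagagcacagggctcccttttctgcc

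Library 1 held 51190555 expected counts and library 2 held 44256287. The 8 globin genes took 86.0% and 84.4% of TPM, so that 1 TPM became 7.15 and 6.42 TPM with the globins left out of the total. All 7 erythroblast markers were detected, with 1318 and 1651 TPM in sum. The early progenitor markers Kit, Gata2 and Cd34 summed to 0.97 and 0.82 TPM, and the macrophage list (3 of 5 markers detected) to 10.6 and 16.6 TPM. In bulk RNA, fewer cells of a type and less RNA per cell cannot be told apart.

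The 77 genes comprised 27 lincRNA, 23 antisense, 23 processed_transcript, 3 TEC and 1 bidirectional_promoter_lncRNA genes, and none of the 146 sense_intronic genes. TEC is a class for single-exon loci that still await experimental support. Detected genes made up 0.972% of lincRNA, 1.12% of antisense, 3.87% of processed_transcript and 0.259% of TEC genes. Over the 6 types this was 1.13%, against 20.01% of protein-coding genes (4296 of 21474). Library 1 alone had 87 such genes and library 2 had 86, so that 19 passed in only 1 library.

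Most members were low. The median of the mean TPM was 2.92, with quartiles of 1.84 and 7.29 and a range of 1.06 to 2140. The detected coding genes had a median of 5.02 and quartiles of 2.29 and 14.5. Since these levels chose the members, they are a description. There were 4 members with a mean of 100 TPM or more, 10 with 20 or more, 17 with 10 or more and 24 under 2 TPM. For 16 members, both libraries had fewer than 100 counts.

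**Figure D1:**
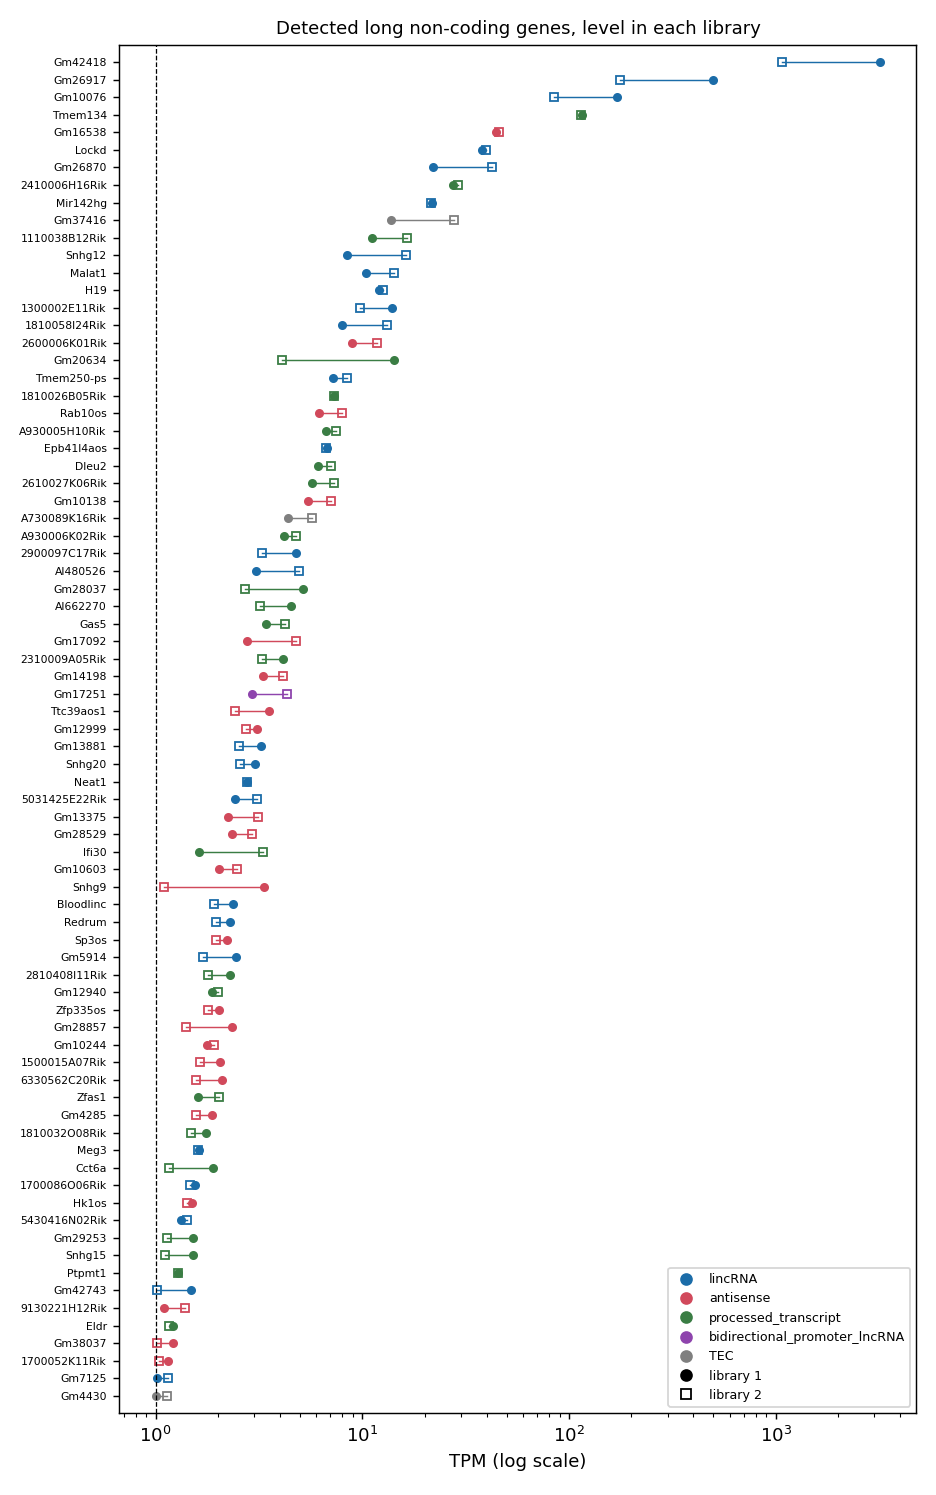
TPM of the 77 detected long non-coding genes in library 1 (filled circles) and library 2 (open squares) on a log scale, ordered by mean TPM and coloured by gene type; the dashed line marks 1 TPM. Gm42418 stands at 3207 and 1074 TPM, and 24 genes have a mean under 2 TPM.

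The members together held 0.442% of TPM in library 1 and 0.193% in library 2 (0.317% ± 0.176, SD, n = 2). Outside the globins these shares were 3.16% and 1.24% (2.20% ± 1.36). The difference lay mainly in Gm42418 and Gm26917, from a list named for a ribosomal RNA repeat. Together they held 83.8% and 64.7% of the members' TPM. Gm42418, a lincRNA gene at chr17:39846958-39848788, had 3207 and 1074 TPM and alone made up 72.6% and 55.6% of the members' TPM. Of its 1831 bases, 1245 lie within the RefSeq entry Rn18s-rs5, an 18S ribosomal RNA related pseudogene. Its neighbour Gm26917, chr17:39843013-39846341, had 497 and 176 TPM. They were 2.99 and 2.83 times as high in library 1. Gm26870 was on the same list but lies on chromosome 9 and went the other way, with 22.0 and 42.5 TPM. Of its 31-base words, 75.2% occur in other genes, and whether it is of ribosomal origin was not tested. Without these 3 genes the members held 0.0692% and 0.0638% of TPM (0.0665% ± 0.00381), and 0.495% and 0.409% outside the globins.

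Some of the highest members have names or sequences of coding genes. Gm10076 (171 and 84.3 TPM), an unspliced lincRNA gene at chr14:105681828-105682211, shares 84.2% of its 31-base words with other genes, above all with Rpl41, which encodes a ribosomal protein. Rpl41 itself had 2598 and 1767 TPM. Tmem134, a membrane protein gene by name that M21 types as processed_transcript, had 115 and 114 TPM at chr19:4125934-4132307. Its short transcript Tmem134-214, of 330 bases, held 84.8% and 76.5% of this. In counts scaled to a common library size (CPM), which are not corrected for length, Tmem134 had 62.2 and 66.7, below Malat1 with 97.3 and 125. Tmem250-ps, named as a pseudogene but typed as lincRNA, had 7.23 and 8.45 TPM. Ifi30, Cct6a and Ptpmt1 also carry the names of coding genes and are typed as processed_transcript. Ifi30, named for a lysosomal thiol reductase of antigen-presenting cells, had 1.62 and 3.31 TPM. Cct6a, named for a chaperonin subunit, had 1.89 and 1.16 TPM, and Ptpmt1, named for a mitochondrial phosphatase, had 1.28 TPM in both libraries.

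Among RNAs known from erythroid cells, all 3 listed were detected. The list is short and was written with earlier results of these data known, so this count is a description only. Lockd, a lincRNA downstream of the cell cycle inhibitor gene Cdkn1b, was the sixth highest member, with 37.8 and 39.7 TPM. It lies at chr6:134929092-134956798, 3579 bases from Cdkn1b on the same strand, and Cdkn1b had 7 and 7.54 TPM. Lockd was thus above its neighbour in TPM in both libraries. In expected counts, which are not corrected for length, it was below, with 1124 and 934 against 1640 and 1384. Ttc39aos1, also known as lincRNA-EPS, an RNA described as protecting erythroid cells from apoptosis, had 3.55 and 2.42 TPM at chr4:109403794-109406155. Dleu2, the host of miR-15a and miR-16 at chr14:61602839-61682373, had 6.10 and 7.02 TPM.

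Other members near erythroid genes, and Redrum, were picked out after their values were seen. Bloodlinc, chr11:102375549-102377020, lies 9346 bases from Slc4a1, the gene of the anion exchanger band 3, and both are on the minus strand. Bloodlinc had 2.38 and 1.91 TPM from 125 and 79 counts, and Slc4a1 had 589 and 762 TPM. Gm13881, chr2:103912024-103918960, lies 39026 bases from Lmo2, a partner of the GATA1 and TAL1 complex. It had 3.25 and 2.53 TPM against 145 and 164 TPM for Lmo2. Hk1os overlaps exons of Hk1, the hexokinase of red cells, by 157 bases on the other strand, with 1.5 and 1.42 TPM against 54.3 and 50.4. Redrum, a lincRNA of erythroid cells, had 2.29 and 1.96 TPM and its nearest coding gene, Zfp608, lay 434754 bases away. Bloodlinc, Gm13881 and Hk1os were thus below their coding neighbours in both libraries. Zfp608, at that distance from Redrum, had 0.04 and 0.02 TPM.

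Of 21 listed snoRNA hosts, 14 were found in the tables by symbol and 7 were detected. These genes release snoRNAs, guides of ribosomal RNA modification, from their introns, and the spliced remainder is often short-lived. Snhg12 was the highest, with 8.43 and 16.35 TPM, followed by Epb41l4aos with 6.74 and 6.68. Gas5, the host of the largest set of snoRNAs among the members, had 3.42 and 4.24 TPM. Snhg20 (3.03 and 2.56), Zfas1 (1.61 and 2.02) and Snhg15 (1.52 and 1.11) were lower. Snhg9 had 3.36 and 1.10 TPM from only 14 and 4 counts on a transcript of 183 bases, so its level is close to the limit of 3 counts that a count of 0 allows. Snhg5 passed in library 2 alone (0.37 and 1.13 TPM), Snhg6, Snhg17, Snhg3 and Snhg14 were under 0.5 TPM in both, and Snhg18 and Snhg11, which M21 types as protein-coding, were listed at 0. By position, 11 of the 77 members held 32 annotated snoRNAs or related small Cajal body RNAs. These were 23.4% of the 47 such hosts among all long non-coding genes, against 1.13% of long non-coding genes detected overall. Beyond the list they included 2410006H16Rik (27.3 and 29.0 TPM, with Snord49a, Snord49b and Snord65), 1110038B12Rik (11.2 and 16.4 TPM, with Snord52), 1810032O08Rik and Cct6a.

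Of 14 listed miRNA hosts, 12 were found and 4 were detected. Mir142hg, whose miR-142a is a miRNA of blood cells, had 21.7 and 21.6 TPM from 270 and 219 counts on 269 bases at chr11:87755577-87757270. The leukocyte markers Ptprc, Cd79a and Cd3e summed to 0.11 and 0.17 TPM, with Cd3e at 0. The neutrophil list (3 of 4 detected) summed to 9.02 and 10.96 TPM, the megakaryocyte list (2 of 3) to 10.49 and 13.15 and the macrophage list to 10.6 and 16.6, and the part of such cells in the Mir142hg level was not tested. H19, an imprinted RNA that is abundant in fetal liver, had 12.03 and 12.59 TPM at chr7:142575529-142578143. The other 5 hepatocyte or hepatoblast markers summed to 13.5 and 15.8 TPM. Apoa1 had 6.01 and 8.05, Dlk1 5.31 and 5.63, Afp 1.27 and 1.34, Alb 0.76 and 0.59 and Ttr 0.18 and 0.19. The part of such cells in the H19 level was not tested. Meg3, another imprinted RNA, had 1.63 and 1.61 TPM, while the stromal markers Col1a1 and Cxcl12 summed to 0.15 and 0.02 TPM. Mir22hg had 0.69 and 0.48 TPM. The host of the miR-17 cluster, Mir17hg, had 0.05 and 0.01 TPM, and Mirg, Ftx, Mir155hg, Mir99ahg and Mir9-3hg were also under 0.2 TPM in both libraries. Mir124a-1hg was listed at 0. By position, 5 members held miRNA genes, 6.02% of the 83 such hosts among all long non-coding genes, the fifth being Snhg20 with Mir6516. A host level is not the level of its mature miRNA.

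Of the 9 nuclear and X-linked RNAs listed, Malat1 and Neat1 were detected. Malat1, an abundant RNA of nuclear speckles at chr19:5795690-5802672, had 10.5 and 14.3 TPM. Neat1, the scaffold of paraspeckles at chr19:5824708-5845478, had 2.78 TPM in both libraries. Xist, which coats the inactive X chromosome, had 1.25 and 0.69 TPM and so passed only in library 1. Tsix, Jpx, Ftx, Firre, Kcnq1ot1 and Airn stayed under 0.2 TPM in both. No member lay on the X or Y chromosome. Among 7 widely expressed RNAs, 6 were found and only Norad, named 2900097C17Rik in M21, was detected, with 4.78 and 3.28 TPM. Tug1 had 0.56 and 0.44 TPM, Pvt1 0.15 and 0.03, and Miat, Lncpint and Trp53cor1 were at 0.01 TPM or less. For the listed names not found by symbol (Snhg1, Snhg4, Snhg7, Snhg8, Snhg10, Snhg16, Dancr, Mirlet7bhg, Mir100hg, Oip5os1 and AY036118), values were not analysed here.

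**Figure D2:**
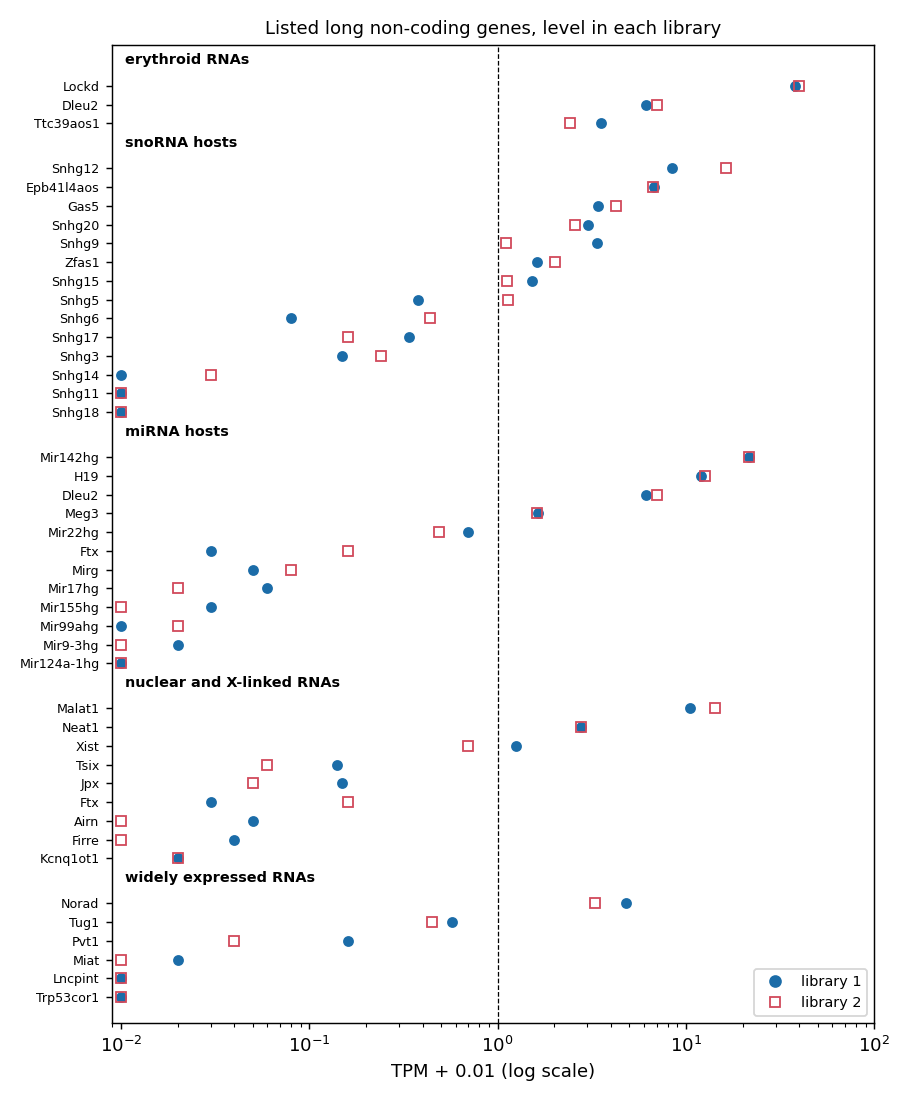
TPM + 0.01 (log scale) of the listed genes found in the tables, by list, in library 1 (filled circles) and library 2 (open squares). The ribosomal RNA repeat list is not drawn, and the dashed line marks 1 TPM. All 3 listed erythroid RNAs and 7 of 14 snoRNA hosts lie right of the line in both libraries, while Xist and Snhg5 straddle it. The lists were written with earlier results of these data known.

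Overlap with a coding gene on the same strand, where reads of the pair cannot be assigned by strand, was found for 9 members. This was 11.7% of the 77, against 1.48% of all 6829 genes. With the partner taken as the coding gene of the longest exon overlap, it was also detected in 4 pairs. Gm28037 (5.18 and 2.70 TPM) shares 484 exonic bases with Rpl24 (20.9 and 38.5 TPM), Gm12940 (1.87 and 2.00) shares 216 bases with Sfpq (22.6 and 21.4), and Gm29253 (1.51 and 1.13) shares 2932 bases with Abcb6 (11.3 and 10.04), a porphyrin transporter. These 3 members were below their partners in both libraries. 1810026B05Rik shares 2628 bases with Chd2, a chromatin remodeller, and was above it with 7.28 and 7.31 against 4.01 and 4.17 TPM.

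In 4 further pairs this partner was near 0, though other coding genes overlap some of these members too. 1300002E11Rik had 13.9 and 9.75 TPM against 0.01 and 0.02 for Map3k13, with 227 bases shared. Gm5914 had 2.44 and 1.70 TPM beside Agrp with 0 and 0.03, with 114 bases shared. It also overlaps 370 exonic bases of Ctcf (21.29 and 12.45 TPM), the gene of a chromatin insulator protein, on the other strand. Of its 31-base words, 66.8% occur in Ctcf, those of this overlap included. 6330562C20Rik had 2.10 and 1.57 beside Anxa9 with 0.03 and 0.06, and overlaps Cers2 (9.4 and 6.77 TPM) by 144 bases on the other strand. Gm20634, at chr3:96245554-96248509 in a histone cluster, had 14.28 and 4.09 TPM. It contains all 1825 exonic bases of the histone H3 gene Hist2h3c1, which was listed at 0. Gm20634 shares 90.4% of its 31-base words with other genes, those of this overlap included. It also runs on the same strand into the histone gene Hist2h2aa1, which was detected at 8.21 and 4.51 TPM. The level of Gm42743 (1.49 and 1.02 TPM) was almost wholly that of Hist2h2bb-201, a histone transcript that M21 types as protein-coding and the tables place under Gm42743, with 96.3% and 100% of it. The lincRNA transcript Gm42743-201 had 0.06 and 0 TPM and so was under 1 TPM by itself. Expected counts were whole, within 0.01, in both libraries for 66 members. Of the 11 members with fractional counts, where reads were divided between genes, 6 were among the 9 same-strand overlaps, and the others were Gm10076, Snhg20, Neat1, Zfas1 and Gm7125.

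Exons of 32 members overlapped a coding gene on the opposite strand only, 41.6% against 25.2% of all long non-coding genes. The overlaps ran from 14 to 1844 bases with a median of 296. The strand setting of the counting is not given in the sources used here, though the listing deposited beside the tables names signal tracks for each strand, so reads in the overlap may belong to either gene. The partner was detected in 21 pairs and was higher than the member in both libraries in 16. Gm12999 (3.10 and 2.75 TPM) lies with all its 485 bases across Atpif1, a mitochondrial ATPase inhibitor needed for heme synthesis in erythroblasts, which had 104.6 and 117.5 TPM. Gm10244 had 1.77 and 1.92 TPM against 106 and 94.9 for the ubiquitin ligase gene Mkrn1. Snhg9 overlaps the ribosomal protein gene Rps2 (123 and 213 TPM) by 14 bases. Members above their partner of longest exon overlap included Gm16538 (44.5 and 45.9 TPM), at chr19:5727206-5731627, against Sssca1 with 4.69 and 6.77. Gm16538 also spans Fam89b on the other strand, which had 33.65 and 46.18 TPM and was slightly above it in library 2. A930005H10Rik had 6.64 and 7.45 TPM against 0.12 and 0.16 for Dph5, and 2310009A05Rik had 4.13 and 3.28 against 0.05 and 0.01 for Pigb. Members thus lay both above and below the gene on the other strand. 2600006K01Rik (8.91 and 11.75 TPM) stood below Cercam with 18.1 and 28.5, and Rab10os (6.16 and 7.94) close to Rab10, a small GTPase of vesicle transport, with 8.73 and 8.94. Gm17251, the bidirectional promoter gene, had 2.91 and 4.33 TPM against 22.1 and 36.9 for Rab11b, another such GTPase. The TEC gene A730089K16Rik (4.35 and 5.7 TPM) had the longest overlap, 1844 bases with C530008M17Rik (5.49 and 6.41).

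In all, 10 members started within 1000 bases of the start of a coding gene that runs away from them on the other strand. This was 13.0%, against 7.98% of all long non-coding genes. Pairs that overlap head to head at their starts, such as Gm17251 with Rab11b, are left out of both shares. The coding partner was detected in 6 of the 10 pairs (60%), against 149 of 530 pairs (28.1%) of long non-coding genes that were not detected. The pairs included Gm16538 with Ehbp1l1 (889 bases apart, Ehbp1l1 at 55.1 and 67.1 TPM) and AI480526 with Setd1b (527 bases, 3.81 and 3.45 TPM). Ttc39aos1 starts 468 bases from Ttc39a, which had 5.64 and 4.96 TPM. Gm13375 starts 173 bases from Arhgap21 (5.41 and 6 TPM). Gm4285 (1.88 and 1.56 TPM) starts 129 bases from Tpt1, the gene of translationally controlled tumour protein, with 498 and 574 TPM. In the other 4 pairs the coding gene was under 1 TPM in both libraries, as with 2610027K06Rik (5.69 and 7.28 TPM) beside the T-box gene Tbx2 (0.12 and 0.15). 5031425E22Rik had 2.41 and 3.10 TPM beside the methyltransferase family gene Kmt2e at 0.84 in both. The remaining pairs were 1500015A07Rik with Grpel2 and Eldr with Fbxo48.

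**Figure D3:**
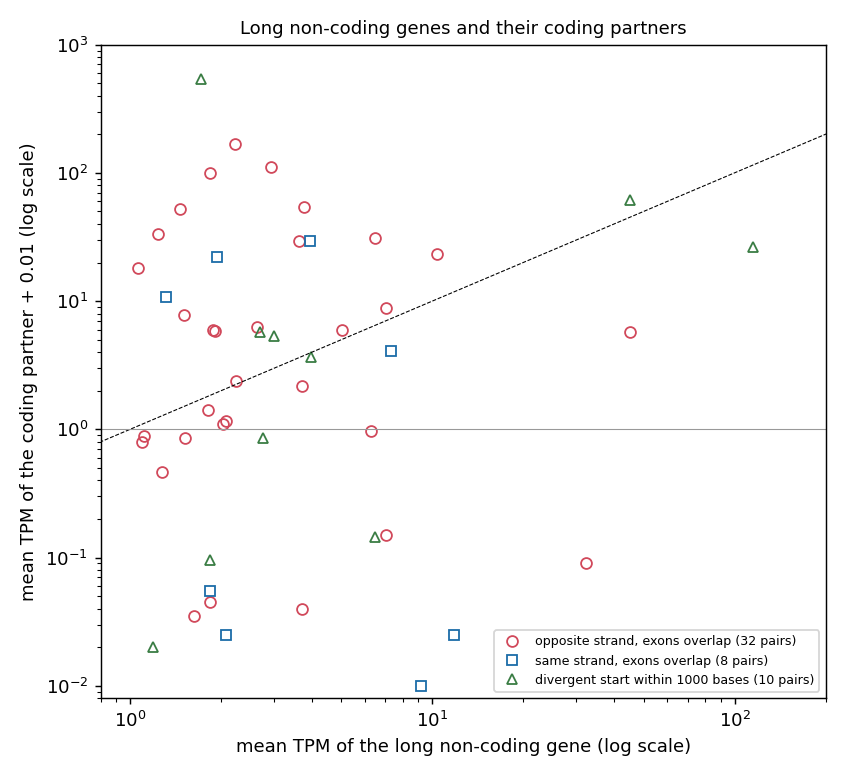
Mean TPM of each member against mean TPM + 0.01 of its coding partner, both on log scales, for exon overlaps on the opposite strand (red circles, 32 pairs) and the same strand (blue squares, 8 pairs with a measured partner) and for divergent starts (green triangles, 10 pairs). The dashed line marks equal levels and the grey line 1 TPM; partners range from listed at 0 (Hist2h3c1) to Tpt1 at 498 and 574 TPM.

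The nearest coding gene was detected for 41 of 76 members (53.9%), against 1162 of 6706 (17.3%) for long non-coding genes that were not detected. Members without exon overlap with a coding gene numbered 36, and the nearest coding gene was detected for 15 of them (41.7%), against 766 of 4947 (15.5%). The median distance was 4342 bases for the first and 8182 bases for the second. These shares were not tested, since neighbouring genes are not independent.

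In structure, 68 members (88.3%) had an annotated transcript of 2 or more exons, against 79.9% of all long non-coding genes. The 9 members with single-exon transcripts only were Gm42418, Gm10076, Gm37416, Gm20634, A730089K16Rik, Norad, Gm38037, 1700052K11Rik and Gm4430. The annotation does not say which transcript was measured, and in some of the 68 the leading transcript had 1 exon. Examples are 9130221H12Rik-202, with 100% of its gene's TPM in both libraries, and 5031425E22Rik-204, with 89.8% and 89.4%. The share of 31-base words found in other genes had a median of 11.97%. Words from exons that overlap another gene at the same place are counted in it, so it is not a measure of repeated sequence alone. At least 50% of words were shared in 14 members and none in 9, among them Mir142hg, Bloodlinc, Redrum and 2410006H16Rik. For the TEC gene Gm37416 (13.7 and 27.8 TPM) the share was 87.5% and for AI480526 (3.05 and 4.92 TPM) it was 61.3%.

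The median GC content of the members' transcripts was 53.4% (quartiles 48.7% and 56.1%), against 46.7% for all long non-coding genes. Detected coding genes had 53.3% and all coding genes 49.7%. The share of long non-coding genes that was detected was 0.239% under 40% GC, 0.697% at 45 to 50% and 4.63% at 55 to 60%. Coding genes went from 2.54% to 33.1% over the same range. Detection and GC content moved together in both classes up to 60% GC, and the part of GC content in which long non-coding genes were detected was not tested.

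**Figure D4:**
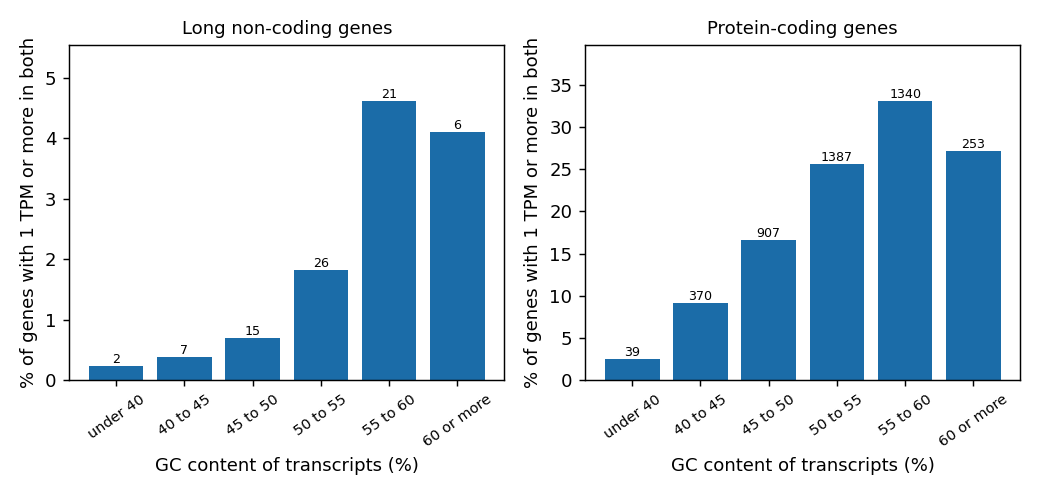
Percent of genes with 1 TPM or more in both libraries (bars, from 0) by GC content of their transcripts, for long non-coding (left) and protein-coding genes (right), with the number detected over each bar. The share is highest at 55 to 60% GC in both, at 4.63% and 33.1%.

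Transcript shares were not used to choose the members, and most members had the same leading transcript in both libraries. Of 49 members with 2 or more transcripts, 43 had at least 50 counts in both libraries, and 40 of these kept their leader. In 15 the leader held at least 90% of the gene's TPM in each library. Lockd-201 held 95.3% and 96.3% of Lockd. The 3004-base transcript Neat1-202 held 96.6% and 97.8% of Neat1, and the 20771-base transcript Neat1-201 held 1.67% and 2.22%, the latter with 93.7 and 96.9 counts. Snhg12-204 held 97.8% and 99.5% of Snhg12. Malat1-201, of 6983 bases, held 68.3% and 72.6% of Malat1 and 96.8% and 97.3% of its counts. Dleu2-206, of 318 bases, held 67.6% and 66.8% of Dleu2. The leader changed in 3 members. In Gas5, with 25 transcripts, Gas5-224 led with 23.1% in library 1 and Gas5-217 with 21.5% in library 2. In Eldr, Eldr-202 held 75.5% in library 1 and 0% in library 2, and in 1810032O08Rik the first and second transcripts changed places. Meg3-204 led in both but with 45.7% and 73.6%.

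Between the libraries, 4 of 77 members (5.19%) differed by 2-fold or more in scaled CPM with a pseudocount of 0.5. The background was 2.65% of 10948 genes with at least 10 counts, and 2.92% of genes with 1 TPM in both libraries. With 1 group no p-value is given, and 4 members are few to set against these shares. All 4 were higher in library 1, where the background in that direction was 0.977% and, at 1 TPM, 1.11%. They were Gm20634 with a log2 ratio of library 2 over library 1 of -1.95 (95% exact counting interval -2.08 to -1.87), Gm42418 with -1.74, Gm26917 with -1.63 and Gm10076 with -1.14. On deposited TPM with the same pseudocount, 5 members differed 2-fold, with a background of 4.43%; the fifth was Snhg9. None was 2-fold higher in library 2 in scaled counts, where the background was 1.67% and, at 1 TPM, 1.82%. Toward library 2 the largest ratios were 0.83 for Gm37416, 0.78 for Gm26870, 0.76 for Ifi30, 0.70 for Snhg12 and 0.56 for Gm17092. In TPM without a pseudocount, Ifi30 and Gm37416 were 2.04 and 2.03 times as high in library 2. Toward library 1, Gm28037 came next with -0.94. Ifi30 moved in the direction of the macrophage markers, and their part in it was not tested.

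Over all members the median log2 ratio of scaled CPM was -0.09, with 47 higher in library 1 and 30 in library 2. This median was -0.10 with DESeq2 size factors and -0.08 with total counts. On deposited TPM it was 0, so its lean toward library 1 was seen in scaled counts only. In scaled CPM the median over genes with 1 TPM was -0.0011. The median size of the ratio was 0.28 for members and 0.22 for detected coding genes. The counting interval of a ratio covers counting error only, and sequenced fragments without molecular identifiers are not independent molecules. Across the 77 genes, which are not independent replicates, the levels in the libraries had a Spearman rank correlation of 0.919 and a Pearson correlation of log2 TPM of 0.960. Of the 10 highest members in each library, 9 were shared.

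**Figure D5:**
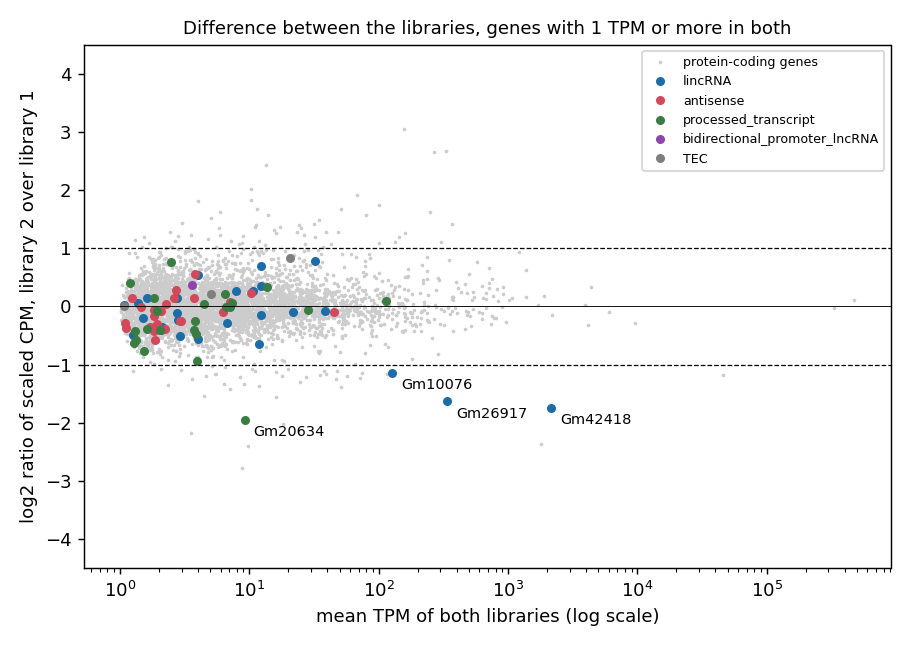
Log2 ratio of scaled CPM, library 2 over library 1, against mean TPM (log scale) for protein-coding genes (grey) and the 77 members (coloured by type); dashed lines mark 2-fold. Gm42418, Gm26917, Gm10076 and Gm20634 lie below the lower line and no member above the upper one.

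Of the 40 promoter windows, 4 (10%) held the GATA letters, against 18.6% of all 32851 RefSeq windows of 300 bases. These were the windows of 1110038B12Rik, Gm17251, Snhg20 and Gm28857. For Snhg20 the RefSeq start differs from that of M21 by 775 bases, and its window lies within the gene as M21 places it. The Kruppel-like letters CACACCC or CACGCCC were found in 9 (22.5%, against 15.5%), among them Gas5, Gm4285 and Gm17251. The E-box CAGCTG was found in 7 (17.5%, against 16.3%) and TGAGTCA in 3 (7.50%, against 5.20%), the third being 2810408I11Rik. Both strands were searched throughout, and none of these motifs contains another. The windows of the members had a median GC content of 60.3%, against 52.7% for all windows. A match here is a run of letters and not a measured binding site.

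At the threshold, the members just inside were Gm4430 (1.00 and 1.13 TPM), Gm7125 (1.01 and 1.15 TPM, from 12.91 and 11.99 counts) and Gm38037 (1.21 and 1.01 TPM). The transcript that held all of the Gm7125 level is typed processed_pseudogene in M21, although the gene is typed lincRNA. Just outside were Gm14966 (1.68 and 0.99 TPM), Gm13703 (0.93 and 1.47) and Gm16163 (1.53 and 0.91). The inner and the outer genes thus overlap in mean level, and each of the outer genes passed in 1 library.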

How the data were processed

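Poly(A)-selected RNA was sequenced in 2 libraries of 1 group, and the tables give each library by itself. Per the deposited listing, the genome was mm10 and the annotation GENCODE M4. Neither aligner, quantifier and versions nor the strand setting is given in the sources used here. Per the file headers, the columns carry the names RSEM gives them. The authors' expected counts are estimates in which reads that match several genes were divided, so they need not be whole. The deposited TPM is corrected for transcript length, and its sum is 1000000 in each library. The deposited FPKM and posterior mean TPM served as alternatives. The deposited percent of a gene's TPM in each transcript gave the transcript shares.

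Gene types, positions, exons and GC content came from GENCODE M21 on the same assembly; 884 Ensembl genes were not matched to it, 12 of which had 1 TPM in both libraries and were left out. Both libraries and 69691 rows per table were used. A gene overlaps another when any exonic base is shared, and starts are divergent when they lie within 1000 bases, on opposite strands and pointing apart. Pairs that overlap head to head at their starts were not counted as divergent. Shared sequence is the percent of a gene's 31-base words found, on either strand, in another M21 gene, including genes that overlap it. Expected counts were rounded for scaling by edgeR 4.0.16 (R 4.3.3), whose factors were 0.993 and 1.01; DESeq2 1.42.0 size factors were an alternative. Ratios used log2(CPM + 0.5) where a gene had at least 10 counts over both libraries. The intervals are exact binomial at 95% on rounded counts without the pseudocount, so at low counts they need not centre on the ratio. With 1 group no test between conditions was made. The 2-fold rule was tried on simulated counts with counting error only, scaled by their totals and centred on the median instead of by edgeR. That trial does not cover spread between replicates or the scaling used here. Other steps used Python 3.11.15, numpy 2.4.6, pandas 2.3.3, scipy 1.17.1 and matplotlib 3.10.9.

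The members, the 6 gene lists, the 9 marker lists and the motifs were chosen with earlier results of these data known. Genes named are the 15 highest members, the 3 highest of each type, the 5 with the largest ratio in each direction (100 or more counts in a library), the 3 on each side of the threshold, the 5 highest same-strand and divergent pairs with their partners, and all listed genes. A gene that the rule takes is not reported here. Genes outside this rule were picked after their values had been seen. Alternatives were other TPM minima, posterior mean TPM, FPKM or CPM, each library alone, and other distances, scalings, pseudocounts and folds. Further ones were the members without TEC genes, same-strand overlaps or the ribosomal repeat list.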

Additional observations from a re-analysis of the deposited data

How the results depend on the processing

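Of 100 alternatives computed over 14 results, 79 stayed within their tolerance and 21 moved. The tolerance was 1.5 times for a count and the spread between the libraries for a value. For the median log2 ratio of members it was set at 0.1, which is larger than the size of that ratio (-0.09). A median of 0 on deposited TPM therefore counted as unmoved. At a minimum of 0.5 TPM the median of the mean TPM was 1.94, the members with divergent starts numbered 19 and the median GC content was 52.8%. At a minimum of 2 TPM there were 46 members, with a median of 6.63 TPM and 53.6% GC; 4 had same-strand overlap, 15 opposite-strand overlap only, 40 a transcript of several exons and 40 whole counts. The posterior mean TPM gave a median of 2.67 TPM and 52.1% GC. By CPM the members held 0.905% and had a median of 3.28, and by FPKM the median was 3.84. Each library alone gave a median of 2.44 to 2.63 TPM and a median GC content of 53.2% to 53.4%. Without the ribosomal repeat list the share was 0.0665% of TPM and 0.452% outside the globins. At 1.5-fold, 12 members differed between the libraries, with a background of 15.2%. No paired analysis was possible because there is only 1 group of 2 libraries. Depth limits the members with few counts, such as Snhg9 with 14 and 4, and overlaps and shared sequence limit where reads were assigned; the causes of these changes were not tested, beyond the smaller or larger number of genes that each minimum leaves.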
